A study of Mus musculus with 36 samples.

Results

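The libraries examined here carry the contrast between the swim responses of 2 genotypes 4 h after the swim. They are all 19 libraries of the study's cohort 2, out of 36 libraries in all, and were chosen by their cohort label alone. The quantity reported for each gene is the interaction, which is the log2 swim response of the mutants minus the log2 swim response of their littermates. The mice were of the C57BL6JL strain and the tissue was cortex. All of them carried HA-Rpl22 and Camk2a-Cre(+/-), with HA-Rpl22 written f/+ in the genotype label and f/f in the extraction protocol, so that Cre, driven by the Camk2a promoter, tags a ribosomal protein in pyramidal neurons, and RNA bound to the tagged ribosomes was recovered with an anti-HA antibody before sequencing (RiboTag). The mutants, called Shank3 below, were Shank3(deltaC/+);HA-Rpl22(f/+);Camk2a-Cre(+/-), and the littermates, called WT below, were Shank3(+/+);HA-Rpl22(f/+);Camk2a-Cre(+/-). Naive mice stayed in the home cage, giving 4 WT and 4 Shank3 libraries. The swim groups, 5 WT and 6 Shank3 libraries, were forced to swim at 25 °C and were taken 4 h later. The swim is labelled as 5 min in the sample treatment field and as 6 min in the protocol. Age, sex and the number of animals in each library are not given in the sources used here, so the p-values below measure the spread between libraries.

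Shank3 is a scaffold of the postsynaptic density of excitatory synapses, and the labels name the mutated allele deltaC. A forced swim is an acute stressor that activates cortical neurons and raises circulating glucocorticoids, after which transcripts of activity-regulated, glucocorticoid-regulated and metabolic genes are known to move over hours. An interaction asks whether such a response differs between genotypes, and it is harder to estimate than either response because it joins the error of 4 groups.

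Slc7a11 had the smallest interaction p of all genes, and it was far higher in Shank3 than in WT after the swim. Slc7a11 encodes xCT, the light chain of the antiporter that brings cystine into cells in exchange for glutamate and so feeds glutathione synthesis. It lies on the minus strand of chromosome 3 from 49892526 to 50443614 (GRCm38/mm10), whereas Shank3 lies on chromosome 15. In CPM (counts per 1e6 counts of a library, with TMM scaling), Slc7a11 was at 18.5, 3.95, 36.7 and 35.9 in the WT naive libraries and at 31.8, 37.3, 32.1 and 44.4 in the Shank3 naive libraries. At 4 h after the swim it was at 7.01, 4.70, 11.1, 13.9 and 8.34 CPM in WT. In the 6 Shank3 swim libraries the lowest value was 225 CPM, the median 269 CPM and the highest 334 CPM. Every Shank3 swim library was therefore above every other library of the cohort, and 1 WT naive library lay below the WT swim group.

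Mean Slc7a11 was 23.7 ± 15.7 CPM (SD, n = 4) in WT naive and 9.01 ± 3.59 CPM (SD, n = 5) in WT swim libraries, and 36.4 ± 5.90 CPM (SD, n = 4) in Shank3 naive and 277 ± 41.1 CPM (SD, n = 6) in Shank3 swim libraries. The Shank3 mean rose 7.61-fold after the swim, while the WT naive mean was 2.64 times the WT swim mean. By edgeR's quasi-likelihood test with Benjamini-Hochberg adjustment, Slc7a11 fell in WT (log2 change -1.44 ± 0.61 SE, adjusted p = 0.0431) and rose in Shank3 (2.93 ± 0.56 SE, adjusted p = 4.87e-05). The interaction was 4.37 ± 0.82 SE on the log2 scale (95% interval 2.71 to 6.03), with an unadjusted p = 5.42e-06. Its adjusted p over all genes was 0.0615 in edgeR, so it missed the threshold of 0.05 by this test. Between the genotypes after the swim, Slc7a11 was 30.7-fold higher in Shank3 by group means and was the only gene called there (log2 difference 4.91 ± 0.55 SE, edgeR adjusted p = 1.47e-06). An exact two-sided permutation test of the interaction in log2 CPM, with genotype labels permuted within treatment over 32340 arrangements, gave p = 0.023. Its null is no genotype difference in either treatment, so it does not test equal swim responses alone. The 3 calls were not equally firm: over 32 alternatives the genotype difference after the swim passed in 32, the rise in Shank3 in 31 and the fall in WT in 15. The WT fall did not pass without WT naive replicate 4, 6 or 7, without WT swim replicate 1, 2 or 5, or without Shank3 swim replicate 1, 2, 3 or 6. With all libraries kept, it missed in edgeR with RLE scaling (adjusted p = 0.0639), without scaling (0.379) and with a replicate block (0.127). It also missed in limma voom (adjusted p = 0.088), with quality weights (0.159) and in DESeq2 (0.070). Its log2 change lay between -2.61 and -0.70 over the alternatives. With the pair share (described with the libraries below) as a covariate, neither the WT fall nor the Shank3 rise passed. The edgeR adjusted p was then 0.055 for the fall, and 0.236 for the rise, which was 1.76. The pair share did not overlap between naive and swim libraries, so that fit cannot separate it from the swim. This gene was known from earlier results on these libraries, so its levels are a description and the p-values do not stand as independent evidence.

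**Figure D1:**
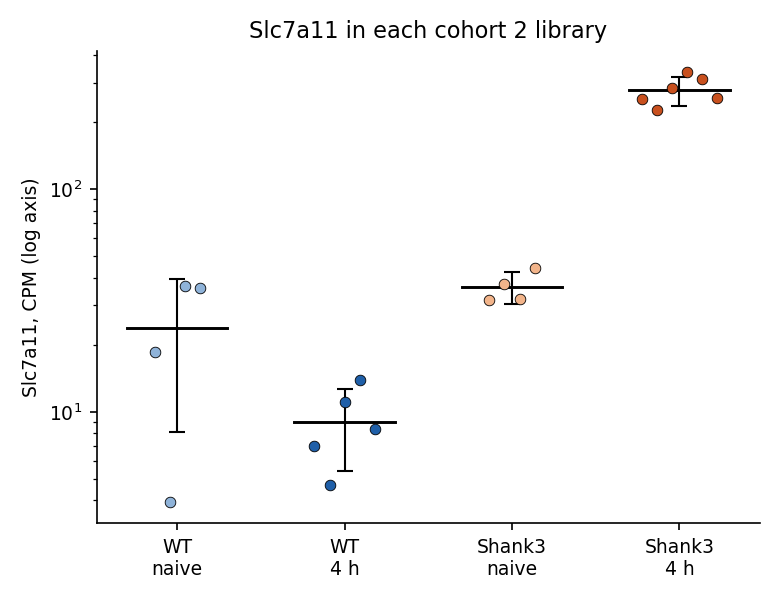
Slc7a11 in CPM on a log axis, 1 point per library, in the 4 groups of cohort 2, with a line at the group mean and bars of 1 SD. The 6 Shank3 swim libraries lie between 225 and 334 CPM, and the other 13 libraries lie between 3.95 and 44.4 CPM.

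The adjusted p of the Slc7a11 interaction fell on both sides of the threshold over the alternatives. Over 32 alternatives the interaction stayed between 4.04 and 4.67 on the log2 scale. It passed at an adjusted p = 5.97e-05 when edgeR was fitted to the 19 libraries alone, and at 0.0064 in DESeq2. It did not pass with RLE scaling (edgeR adjusted p = 0.121) or in limma voom (adjusted p = 0.0728), and it had an adjusted p = 0.838 in edgeR without Shank3 naive replicates 6 and 7. Leaving out WT naive replicate 5 alone gave an edgeR adjusted p = 0.00561, and leaving out WT swim replicate 4 alone gave 0.0326. In the 36-library fit the gene's biological coefficient of variation was 54.0%, against 28.1% when the 19 libraries were fitted alone. The 36-library fit includes 11 libraries taken 1 h after a swim, of which 3 were above 100 CPM for Slc7a11. The 3 genes annotated on the opposite strand within Slc7a11, Gm2345, Gm37854 and Gm37826, had 0 counts in all 36 libraries. Among 52 other tested genes within 10 Mb of Slc7a11, the median interaction was -0.12 and 2 had an unadjusted p under 0.05, with values from -2.1 to 0.96.

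The 120 bases before the RefSeq start of Slc7a11 are shown because they carry the letters searched around this gene. Amino acid response elements, bound by the stress factor ATF4, are known in this promoter. Capitals mark both matches to TGATGNAA (searched on both strands). This motif occurs in 3.97% of 32851 RefSeq promoter windows of 300 bases (GRCm38.p6, 250 bases before to 50 after each start), which are longer than the stretch shown. The 120 bases lie at chr3:50443614-50443733 and are given on the minus strand.
Slc7a11: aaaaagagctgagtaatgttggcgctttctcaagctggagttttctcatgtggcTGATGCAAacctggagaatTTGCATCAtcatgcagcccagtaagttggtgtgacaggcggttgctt
In the 300-base window no match was found to TGACNNNGC, the antioxidant response element form bound by NRF2, which occurs in 12.4% of windows. There was likewise no match to the cyclic AMP response element TGACGTCA, present in 1.79% of windows, or to the AP-1 form TGANTCA, present in 7.81%. These are matches of letters to the forms given, other forms were not searched, and they say nothing on binding in these neurons.

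The partners of Slc7a11 in cystine uptake and glutathione metabolism had smaller interactions, none of which passed the test. Of 20 genes listed for this pathway, 14 passed the filter on low counts, 11 of these had an interaction above 0, none was called and 1, Slc7a11 itself, had an unadjusted p under 0.05. The background for these counts is 48.05% of all genes above 0, 2.66% at an unadjusted p under 0.05 and 0.0% called. The list's median interaction was 0.15, against -0.02 over all 11341 genes tested. Chac1, Cth, Cbs, Nqo1, Hmox1 and Nfe2l2 were too low to test.

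Slc3a2, the heavy chain that pairs with xCT at the membrane, was at 8.08, 1.32, 9.52 and 7.97 CPM in WT naive and 9.27, 8.65, 2.37 and 7.16 CPM in Shank3 naive libraries. After the swim it was at 6.55, 4.23, 5.87, 3.83 and 6.84 CPM in WT, and between 5.11 and 9.60 CPM in Shank3. All 4 groups overlapped, and its interaction was 0.47 ± 0.49 SE (log2). Gclm, the modifier subunit of the enzyme that begins glutathione synthesis, had the next smallest p of the pathway. It was at 5.77, 5.26, 5.44 and 4.98 CPM in WT naive and 5.30, 3.78, 3.56 and 0 CPM in Shank3 naive libraries, and reached 4.68, 8, 11.4, 8.71 and 11 CPM in WT swim libraries and 7.24 to 14.1 CPM in Shank3 swim libraries. Gclm rose in Shank3 (log2 change 1.77, edgeR adjusted p = 0.000439) and did not pass in WT (0.74, edgeR adjusted p = 0.0995), but the difference between the responses was 1.03 ± 0.59 SE and did not pass. Gclc, the catalytic subunit of the same enzyme, had an interaction of 0.08 ± 0.27 SE, and Gss, which completes glutathione, 0.15 ± 0.35 SE.

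Gpx4, Gpx1, Gsr, Txnrd1 and Slc1a1 rose after the swim in both genotypes and Gss fell in both. Gpx4, which reduces lipid peroxides with glutathione, rose in WT (log2 change 1.65, edgeR adjusted p = 0.000288) and in Shank3 (2.1, adjusted p = 1.27e-05), with an interaction of 0.45 ± 0.54 SE. Txnrd1, thioredoxin reductase, also rose in both, by 1.38 and 0.89 on the log2 scale, and had the lowest interaction of the pathway at -0.49 ± 0.39 SE. Gsr, which regenerates glutathione, had an interaction of 0.14 ± 0.54 SE, and Gpx1 one of -0.07 ± 0.71 SE. Prdx1, which acts on peroxides with thioredoxin, had an interaction of 0.26 ± 0.42 SE, and Srxn1 one of 0.22 ± 0.33 SE. Txn1 (0.14 ± 0.45 SE), Slc1a1, a neuronal cysteine and glutamate carrier (0.06 ± 0.64 SE), and Keap1, the brake on NRF2 (-0.46 ± 0.35 SE), completed the tested set. Keap1 sits opposite Gm16754, whose counts were far higher (179 to 1460 CPM), and Gclm, Gss and Slc1a1 also lie opposite an exon of another gene. Whether reads of such pairs were split by strand in the authors' counting is not given in the sources used here.

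Shank3 itself does not check the genotype labels, because a gene-level count joins the altered part of the gene with the rest. The Shank3 row was at 5.77, 7.90, 5.44 and 5.98 CPM in WT naive and 15.9, 16.2, 15.4 and 12.9 CPM in Shank3 naive libraries, so it was higher in every naive library labelled as mutant. After the swim it was at 6.55, 9.41, 13.4, 11.8 and 19.7 CPM in WT, and at 11.7 to 34.6 CPM with a median of 22.9 CPM in Shank3, and these groups overlapped. The row rose after the swim in WT (log2 change 1.03, edgeR adjusted p = 0.0148). The naive difference was 1.30 on the log2 scale with an edgeR adjusted p = 1.0, and the interaction was -0.46 ± 0.47 SE. Gm15609, whose exon lies opposite Shank3, was at 75.5 to 81.7 CPM in WT naive and 85.4 to 180 CPM in Shank3 naive libraries. It was therefore also higher in every naive library labelled as mutant. After the swim it was at 23.4 to 57.9 CPM in WT and 34.2 to 75.4 CPM in Shank3. The part of the opposite row's reads in the Shank3 row was not tested.

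**Figure D2:**
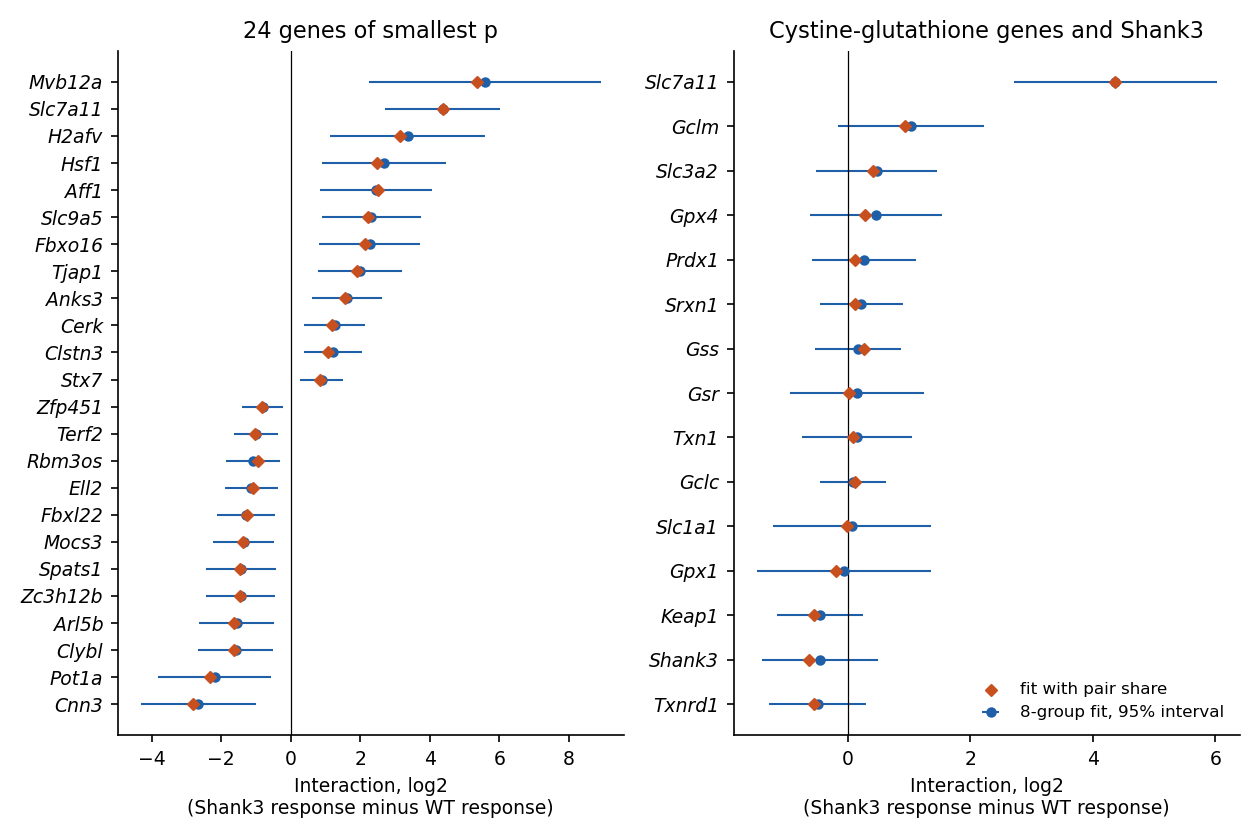
Interaction (log2, Shank3 swim response minus WT swim response) as points with 95% intervals, for the 24 genes with the smallest p by direction (left) and for Shank3 and the tested cystine and glutathione genes (right). Diamonds give the same value when the pair share is a covariate, and Slc7a11 is the one gene of the right panel whose interval excludes 0.

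Over all genes, no interaction was called. Of 11341 genes tested, 0 had an edgeR adjusted p under 0.05 (0.0%), and 302 (2.66%) had an unadjusted p under 0.05, of which 129 were above 0 and 173 below. DESeq2 called 1 gene and limma voom called 0, and had 359 and 330 genes with an unadjusted p under 0.05. That number was not steady over the settings: limma voom with quality weights had 1737 of 11341 genes at that p, with 1 called. The 19 libraries fitted alone with the pair share had 639 of 11176, and the fit without scaling beyond the library total had 235 of 11341. The median interaction was -0.02 and the interquartile range ran from -0.25 to 0.24 on the log2 scale. The median standard error was 0.43, so the design resolves large differences and few small ones. The 95% interval lay within 1 log2 unit of 0 for 4288 genes (37.8%), a share that ran from 0.952% for the 2836 genes lowest in expression to 79.6% for the 2836 highest.

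The responses themselves held many calls, most of which were not called once the pair share, which differed between naive and swim libraries, was a covariate. In WT, 3294 genes (29.0%) rose and 3056 (26.9%) fell, and in Shank3, 3711 (32.7%) rose and 3329 (29.4%) fell, by edgeR at an adjusted p under 0.05. With the pair share as a covariate, 872 genes were called in WT and 60 in Shank3. The pair share is made from the same counts and did not overlap between naive and swim libraries. That fit therefore cannot separate the swim from the pair share, and nothing is read from its fewer calls. The direction went with the class of row: the median response was -0.51 in WT and -0.64 in Shank3 for 5241 rows with an exon opposite another gene's exon, and 0.58 and 0.62 for 4822 rows with no gene opposite. The WT and Shank3 responses rest on separate libraries. Of the WT calls, 86.2% were also called in Shank3, and of the Shank3 calls, 77.8% were also called in WT. Among the 5477 genes called in both, 2696 rose in both, 2780 fell in both, and 1 moved in opposite directions. That gene was Slc7a11, with the limit on its WT fall given above. Without scaling beyond the library total, 6478 genes rose and 1384 fell in WT, and 7193 rose and 1169 fell in Shank3, as that scaling moved the median response of all genes from 0.23 to 0.98 in WT and from 0.22 to 1.17 in Shank3. Across genes the 2 responses had a Pearson r of 0.898 (n = 11341 genes, which are not independent and share the depth and pair share of their libraries), and an r of 0.629 once the pair share was a covariate. There were 873 genes called in WT alone and 1563 in Shank3 alone, of which 94 (10.8%) and 122 (7.81%) had an interaction at an unadjusted p under 0.05, against 2.66% of all genes. These calls were picked from the same contrasts, so nothing is read from those shares. The remaining genes were called in 1 genotype without a difference between the genotypes that reached that p.

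**Figure D3:**
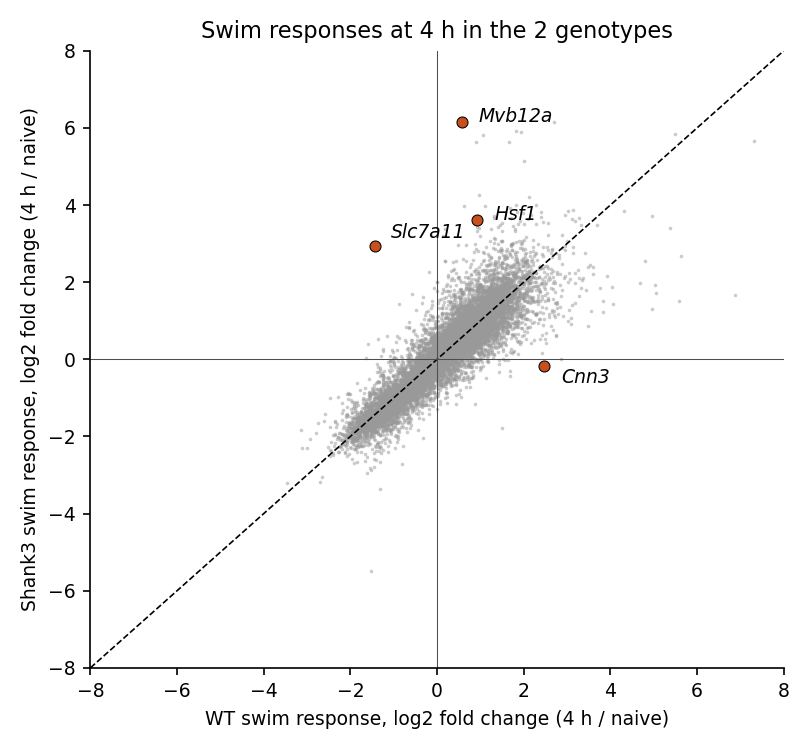
Swim response at 4 h in WT (horizontal) against Shank3 (vertical), each as log2 fold change of 4 h over naive, 1 point per gene for 11341 genes, with the line of equal response dashed. Slc7a11 lies at -1.44 in WT and 2.93 in Shank3, in the quadrant of opposite directions.

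The genes of smallest p in each response were called in both genotypes, in the same direction. Cenpb, a centromere-binding protein, had the smallest p in WT and fell from 128, 101, 89.8 and 68.8 CPM in naive to 23.8, 30.6, 17.6, 19.5 and 22.9 CPM in swim libraries. In Shank3 it fell from 67.6, 66.0, 67.7 and 70.1 CPM to between 19 and 29.8 CPM. The log2 changes were -2.08 and -1.42, and the interaction was 0.66 ± 0.33 SE. Arhgap27 fell by 1.97 in WT and by 2.14 in Shank3 on the log2 scale. Luzp1, a cytoskeletal protein, rose by 1.20 and 1.77. Arhgap27, Tssk6, Rnls, Cep63, Crb2, Ankrd24 and Tlr9, the others of the rule, had interactions between -0.48 and 0.34.

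The 12 genes above 0 and 12 below 0 with the smallest interaction p are given as values, since none but Slc7a11 had an edgeR adjusted p that rounds to less than 1.0. The sign of the interaction was kept in every alternative that gave a value (28 to 33 for each gene) for 24 of the 24, and outside Slc7a11 none passed in any of them. The genes were picked by small p in the same libraries, so the kept signs are not separate support. In 23 of the 24, Slc7a11 being the exception, the genotypes were farther apart in the naive libraries than after the swim. This was also so for 90.7% of the 302 genes at an unadjusted p under 0.05 and for 60.8% of all genes. The naive groups are the smaller and the shallower ones, and the median standard error of the genotype difference was 0.351 in naive and 0.245 in swim libraries. The part of depth and group size in this pattern was not tested.

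Among genes above 0, Hsf1, the master regulator of the heat shock response, was at 3.46, 3.95, 3.4 and 3.99 CPM in WT naive and 1.32, 0.541, 1.19 and 0 CPM in Shank3 naive libraries. It was at 6.55, 4.70, 5.54, 4.88 and 12.0 CPM in WT swim and 3.09 to 14.9 CPM in Shank3 swim libraries. The naive groups did not overlap and the swim groups did. Hsf1 rose in Shank3 (log2 change 3.62, edgeR adjusted p = 1.45e-05), but the naive Shank3 level rests on 3 counts in all, and the interaction was 2.69 ± 0.89 SE (unadjusted p = 0.0043). Mvb12a, a subunit of the ESCRT-I sorting complex, had 0 counts in every Shank3 naive library and 1.61 to 8.05 CPM in Shank3 swim libraries. Its Shank3 swim mean was at least 6.45-fold higher than the level that 3 counts over the naive group allow, and its fitted interaction of 5.58 depends on the prior count.

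Clstn3 and Stx7 had more counts. Clstn3, a calsyntenin of synaptic membranes, was at 9.23, 19.7, 13.6 and 24.9 CPM in WT naive and 9.27, 13.0, 8.31 and 5.73 CPM in Shank3 naive libraries. It reached 24.8, 21.2, 29.3, 24.4 and 42.9 CPM in WT and 24.7 to 50.1 CPM in Shank3 after the swim. Clstn3 rose in both genotypes, by 0.79 and 2.01 on the log2 scale, with an interaction of 1.22 ± 0.41 SE. Stx7, a SNARE of late endosomes, was at 25.4, 29.0, 38.1 and 40.9 CPM in WT naive, 19.9, 27.0, 24.9 and 11.5 CPM in Shank3 naive, 47.2, 41.9, 40.4, 40.7 and 48.2 CPM in WT swim and 45.6 to 58.7 CPM in Shank3 swim libraries, with an interaction of 0.89 ± 0.31 SE. In both treatments the genotypes overlapped for both genes. The rest of the set above 0 were Tjap1, Slc9a5, a sodium-proton exchanger of neurons, Anks3, Fbxo16, Aff1, a subunit of the super elongation complex, H2afv, a histone variant, and Cerk, ceramide kinase, with interactions from 1.26 to 3.37. The highest, H2afv, rests on 2 counts over the Shank3 naive libraries, both in replicate 5, and was 6.33 without that library.

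Among genes below 0, Terf2, a shelterin protein of telomeres, was at 11.5, 13.2, 12.2 and 18.9 CPM in WT naive and 23.8, 23.8, 15.4 and 32.9 CPM in Shank3 naive libraries. After the swim it was at 26.2, 21.2, 22.2, 25.4 and 25.9 CPM in WT and 18.4 to 23.8 CPM in Shank3. Terf2 rose in WT (log2 change 0.79, edgeR adjusted p = 0.00457) and did not pass in Shank3 (-0.20), and the interaction was -0.99 ± 0.32 SE. Ell2, an elongation factor for RNA polymerase II, was at 3.46, 5.26, 10.2 and 8.97 CPM in WT naive and 14.6, 14.6, 20.2 and 15.7 CPM in Shank3 naive libraries, 2 groups that did not overlap. It then lay at 9.78 to 15.1 CPM in WT and 9.29 to 14.5 CPM in Shank3, with an interaction of -1.13 ± 0.38 SE. Zfp451, a SUMO ligase, rose in WT from 10.4, 10.5, 10.9 and 13.0 CPM to 21.9 to 29.0 CPM (log2 change 1.21, edgeR adjusted p = 2.48e-05). In Shank3 it was at 17.2, 22.2, 16.6 and 17.2 CPM in naive and 21.6 to 27.4 CPM in swim libraries, and its interaction was -0.81 ± 0.29 SE. Cnn3, Mocs3, Fbxl22, Clybl, Arl5b, Zc3h12b, Spats1, Rbm3os and Pot1a, also a shelterin gene, had interactions from -2.66 to -1.08. The lowest, Cnn3, was -1.72 without Shank3 naive replicate 5.

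Gene lists for pathways and cell types were examined by their counts and medians. Of 624 distinct genes tested in the lists, 16 (2.56%) had an unadjusted interaction p under 0.05, 12 above 0 and 4 below, against 2.66% of all genes, and none was called. In 24 lists with at least 5 tested members, the medians ran from -0.10 to 0.28 on the log2 scale, and 20 of them were above the median of all genes. Of all genes tested, 48.05% were above 0, which is the background for the counts above 0 in the lists. By row class, the median was -0.07 with an exon opposite another gene's exon and 0.05 with no gene opposite. Row class was not matched between the lists and all genes. The list medians moved with single libraries and with the scaling, as given in the closing section.

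Lists of the response to activity and stress came first. Of 26 immediate early genes of neurons, 18 were tested, 8 of them were above 0 and the median was -0.09. Of the 18, 9 rose and 4 fell in WT, and 10 rose and 5 fell in Shank3, beside 29.0% and 26.9% of all genes in WT and 32.7% and 29.4% in Shank3, which are the background for all counts of responses in the lists. That background is not matched for the class of row, which went with the direction of the response. Fosl2, an AP-1 subunit, had the smallest p of that list. It was at 18.5, 18.4, 11.6 and 18.9 CPM in WT naive and 11.9, 11.4, 11.9 and 12.9 CPM in Shank3 naive libraries, then at 12.1 to 21.2 CPM in WT and 12.8 to 33.3 CPM in Shank3, with an interaction of 0.86 ± 0.43 SE. Of 30 delayed activity genes, 27 were tested and 17 were above 0, with a median of 0.20, and 11 rose and 2 fell in WT (all genes 29.0% and 26.9%) and 16 rose and 2 fell in Shank3 (32.7% and 29.4%). Fbxo33, a ubiquitin ligase subunit, was at 27.7, 14.5, 13.6 and 12.0 CPM in WT naive and 8.88, 11.3, 8.47, 13.2 and 12.5 CPM in WT swim libraries, against 17.2, 8.11, 9.50 and 14.3 CPM and 12.4 to 21.9 CPM in Shank3, with an interaction of 1.02 ± 0.39 SE.

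Glucocorticoid-responsive genes had a median of 0.14 (7 of 12 tested above 0), and clock genes one of 0.14 (13 of 19). Per1, which belongs to both lists, was at 4.62, 3.95, 6.12 and 0.997 CPM in WT naive and 0, 3.78, 4.75 and 5.73 CPM in Shank3 naive libraries. It reached 6.59 to 22.5 CPM in WT and 9.26 to 53.3 CPM in Shank3 swim libraries. Per1 rose in both genotypes, by 1.74 and 2.85 on the log2 scale, and its interaction was 1.11 ± 0.84 SE. Dbp, a clock output factor, had an interaction of 0.60 ± 0.29 SE.

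Genes of the integrated stress response, which includes other targets of ATF4, had a median interaction of 0.03, with 11 of 20 tested members above 0 and none at an unadjusted p under 0.05. In this list 8 genes rose and 4 fell in WT, and 8 rose and 4 fell in Shank3, against 29.0% and 26.9% of all genes in WT and 32.7% and 29.4% in Shank3. Slc7a5, an amino acid transporter of this list that also pairs with Slc3a2, lay at -3.65 ± 1.99 SE but had 0 counts in every WT naive library, so that this fitted value depends on the prior count. Chaperones of the endoplasmic reticulum had a median of 0.16 (10 of 16 above 0), and heat and cold shock genes one of -0.04 (8 of 18 above 0). Among the latter Hsf1 was at 2.69 and Stip1, a co-chaperone, at 0.41 ± 0.30 SE.

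**Figure D4:**
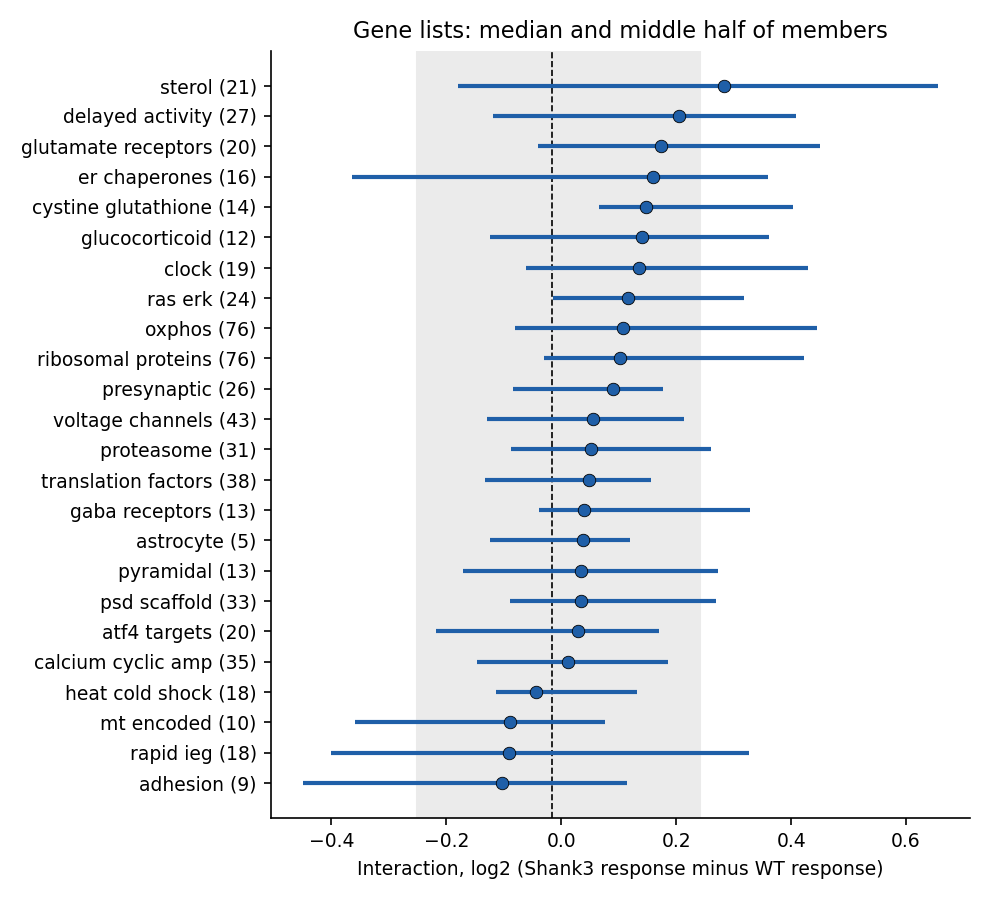
Median (point) and interquartile range (bar) of the interaction, log2, over the tested members of each of 24 gene lists, with the number of members in brackets. The dashed line is the median of all 11341 genes (-0.02) and the grey band their interquartile range (-0.25 to 0.24), within which all list medians but that of sterol synthesis (0.28) lie.

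Lists for protein synthesis and energy held many genes called in the swim responses and none in the interaction. Rows with no gene opposite, whose median response was above 0 in both genotypes, were 55 of 76 tested cytosolic ribosomal protein rows. They were 48 of 76 for oxidative phosphorylation, against 4822 of 11341 over all genes. The part of row class in the counts below was not tested. Of 76 tested cytosolic ribosomal proteins, 40 rose and 8 fell in WT (all genes 29.0% and 26.9%) and 49 rose and 6 fell in Shank3 (32.7% and 29.4%). The median interaction was 0.10 (51 above 0), with the large subunit at 0.10 and the small at 0.11. Of 76 genes of oxidative phosphorylation, 51 rose and 3 fell in WT and 57 rose and 3 fell in Shank3, against the same shares of all genes. The median interaction was 0.11 and 3 had an unadjusted p under 0.05. Those were Atp5e, a subunit of ATP synthase, at 1.15 ± 0.44 SE, Ndufa12 of complex I at 1.25 ± 0.55 SE and Uqcrc2 of complex III at 0.48 ± 0.22 SE. Atp5e was at 3.46, 7.90, 8.84 and 15.9 CPM in WT naive, 5.30, 5.41, 3.56 and 2.86 CPM in Shank3 naive, 9.82 to 15.0 CPM in WT swim and 12.8 to 15.7 CPM in Shank3 swim libraries, so the groups overlapped at both stages. Translation factors and proteasome subunits had medians of 0.05 each. Eif3g, an initiation factor subunit, was the 1 translation factor at an unadjusted p under 0.05, at -0.55 ± 0.24 SE.

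Synaptic lists, which hold the partners of Shank3, had medians from 0.03 to 0.17. Of 33 postsynaptic density genes, 18 were above 0, the median was 0.03 and 2 had an unadjusted p under 0.05. These were Nlgn2, an adhesion molecule of inhibitory synapses, at 0.65 ± 0.28 SE, and Dlgap4, a scaffold that binds Shank proteins, at 0.97 ± 0.43 SE. Nlgn2 was at 36.9, 42.1, 46.3 and 48.8 CPM in WT naive, 33.1, 46.5, 28.5 and 17.2 CPM in Shank3 naive, 35.7 to 47.6 CPM in WT swim and 33.4 to 61.6 CPM in Shank3 swim libraries, with overlap throughout. Glutamate receptor genes had a median of 0.17 (14 of 20 above 0), GABA-A receptor genes 0.04, presynaptic genes 0.09 and voltage-gated channels 0.06, and none of these had a member at an unadjusted p under 0.05. In the Ras-ERK list Sos2, an exchange factor for Ras, was at 1.01 ± 0.41 SE, and in the calcium and cyclic AMP list Rcan1, an inhibitor of calcineurin, at -0.71 ± 0.35 SE. Rcan1 rose in WT from 13.8, 22.4, 15.6 and 16.9 CPM to 38.5 to 52.2 CPM and in Shank3 from 23.8, 27.6, 21.4 and 27.2 CPM to 27.7 to 47.4 CPM. Sterol synthesis had the highest list median, 0.28 (13 of 21 above 0), with no member at an unadjusted p under 0.05, and adhesion molecules the lowest, -0.10 (3 of 9 above 0).

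The 13 markers of pyramidal neurons, the labelled cell type, were all tested and summed to 1483 to 3999 CPM in the 19 libraries, with a median interaction of 0.03. Fezf2, a factor of deep-layer projection neurons, was at 3.29 ± 1.41 SE, but rests on 1 count over the Shank3 naive libraries. Interneuron markers summed to 35.5 to 88.2 CPM, astrocyte markers to 53.1 to 152 CPM and oligodendrocyte markers to 71.6 to 327 CPM. Of 55 glial and vascular markers, 5 had 0 counts in all 19 libraries. Their summed level was 782 to 1057 CPM in WT naive, 618 to 698 in WT swim, 806 to 1024 in Shank3 naive and 585 to 658 in Shank3 swim libraries. It was lower after the swim in both genotypes (exact permutation p = 0.00794 in WT and 0.00476 in Shank3), and the changes differed by less than the libraries' spread (difference -2.30 CPM, exact two-sided permutation p = 0.968), and the part of other cells in the gene results was not tested. Csf1r, which lies opposite an exon of another gene, made 25.4% to 82.2% of that sum. Without Csf1r the sum went the other way: it was 188 to 249 CPM in WT naive and 314 to 452 CPM in WT swim libraries, and 208 to 254 CPM in Shank3 naive and 288 to 487 CPM in Shank3 swim libraries, with no overlap within a genotype. Oligodendrocyte markers were at 85.4 to 91.7 CPM in WT naive, 119 to 272 in WT swim, 71.6 to 124 in Shank3 naive and 125 to 327 in Shank3 swim libraries. In such recovered RNA, fewer cells of a type and less RNA per cell cannot be told apart.

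Depth ran from 957353 to 3520018 counts, against a depth of 15 M reads stated for each sample. The pair share, which is the percent of counts of antisense and coding gene pairs that fall on the coding rows, was 11.7% to 15.0% in the naive libraries and 17.0% to 33.1% in the swim libraries. It rose with the swim by 9.95 percentage points in WT and 12.5 in Shank3 (exact permutation p = 0.0159 and 0.019), and the difference of 2.52 had an exact two-sided permutation p = 0.527 with genotype labels permuted within treatment. Ribosomal RNA rows held 38.7% of the counts in Shank3 naive replicate 7, 13.6% in replicate 6 and at most 1.70% in the other 17 libraries, and the genotypes' changes in that share gave an exact p = 0.207. With the pair share as a covariate, the interaction again had 0 edgeR calls and 522 unadjusted p-values under 0.05. The part of the pair share in the swim responses was not tested further.

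**Figure D5:**
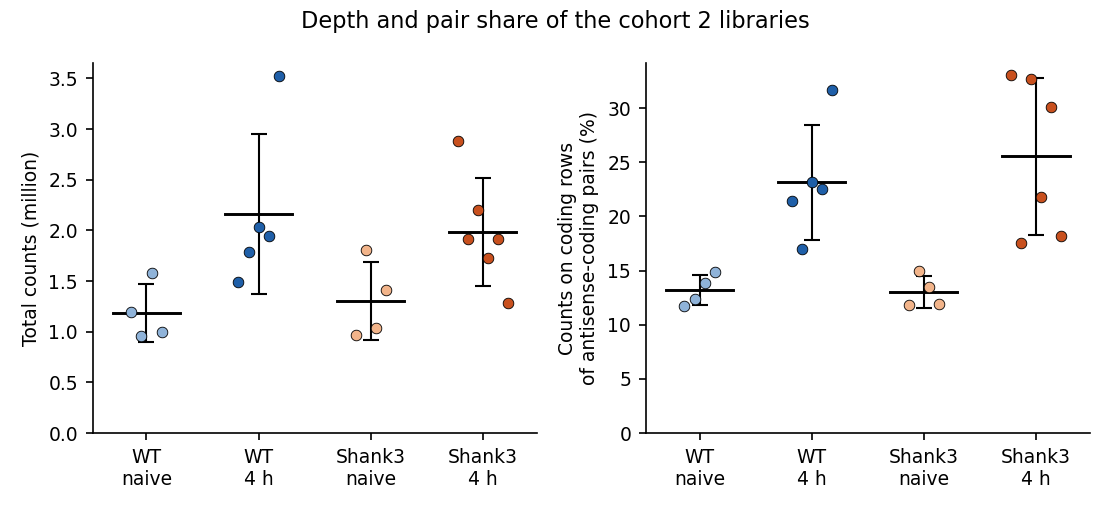
Total counts in units of 1e6 (left) and pair share in percent (right), 1 point per library in the 4 groups of cohort 2, with a line at the mean and bars of 1 SD. Mean depth is higher after the swim in both genotypes, with overlap, and the pair share is at or above 17.0% in all swim and at or below 15.0% in all naive libraries.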

How the data were processed

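The deposited files hold raw counts per Ensembl gene, which the authors made and which the labels describe as coming from a TruSeq stranded kit. Per the submitters' processing notes, the tools were HISAT2 2.2.0 and StringTie 2.1.3, with Salmon 1.4, after Trimmomatic 0.39 and FastQC, then DESeq2, and the build was mm10. Which tool counted, and its strand setting, are not given in the sources used here. Of the counts of the 19 libraries, rows with an exon opposite another gene's exon held 57.4% to 91.1%. Mitochondrially encoded rows held 0.0179% to 0.147%. Whether the strand setting fitted the kit was not tested, so the CPM of such a row may hold its partner's reads. For the same reason the CPM of any row, Slc7a11 included, may not give the level of its own mRNA. The genes and lists were chosen with earlier results of these data known.

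Counts of all 36 libraries were fitted with edgeR 4.0.16 (R 4.3.3; TMM, filterByExpr, robust quasi-likelihood) in 8 groups of genotype, treatment and cohort, with 28 residual degrees of freedom, and adjusted by Benjamini-Hochberg over 11341 genes at a threshold of 0.05. limma 3.58.1 and DESeq2 1.42.0 were alternatives. The fit was also run on simulated counts with the same spread for all genes and no differences in pair share. As the real libraries differ in both, nothing is read from that run. CPM use TMM library sizes. Gene positions and opposite-strand genes came from GENCODE vM21, which placed 55229 of 55470 identifiers. Promoter windows came from RefSeq (GRCm38.p6). Identifiers without a symbol held 0.0412% of the counts and stayed in. The named genes are the 12 of smallest interaction p in each direction whose mean log2 CPM was 1 or more, without provisional names, the 3 of smallest p of each list, Shank3, the tested cystine and glutathione genes, and the 5 of smallest p in each response. No 2 libraries of a group agreed within sampling noise (chi-square per degree of freedom 1.46 or more).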

Additional observations from a re-analysis of the deposited data

Results flagged for a closer look

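The first 6 genes are listed because every WT swim library lay on one side of the WT naive mean and every Shank3 swim library on the other side of the Shank3 naive mean. They are Slc7a11 (interaction 4.37), Slc9a5 (2.32), Terf2 (-0.99), Mocs3 (-1.35), Ell2 (-1.13) and Rbm3os (-1.08), all on the log2 scale. All 6 are among the 24 genes picked above by small interaction p in the same libraries, so the pattern is not separate support. The share of all genes with this pattern is not given here. The interaction term tests each difference. By edgeR its adjusted p was 0.0615 for Slc7a11 and 1.0 for the other 5.

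Slc7a11 was also high in libraries that the contrast does not use. Of 11 libraries taken 1 h after the swim, WT replicate 2 was at 188 CPM, WT replicate 4 at 238 CPM and Shank3 replicate 3 at 249 CPM, against a highest naive value of 44.4 CPM in either cohort.

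Single libraries stood apart from their group by Dixon's test in 8 of 167 groups of values tested, where chance alone picks out about 1 in 20 groups. WT swim replicate 5 had the deepest library of its group at 3.52 (1e6 counts) and the highest Hsf1 at 12.0 CPM. The summed glial and vascular markers were at 585 CPM in Shank3 swim replicate 1. Shank3 naive replicate 5 was high for H2afv (1.08 CPM), Zfp451 (22.2 CPM) and Srxn1 (35.1 CPM). Clybl was low in WT swim replicate 2 (6.59 CPM) and Spats1 high in WT swim replicate 3 (35.2 CPM).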

How the results depend on the processing

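Among the 24 genes of smallest p, each with a value in 28 to 33 alternatives, none of those values changed sign. As they were picked by small p in the same libraries, nothing is read from this. The number of genes called in the interaction was 1 with the 19 libraries fitted alone, 1 with a stricter count filter, 1 with ribosomal RNA rows removed, 1 in DESeq2 and 5 with no filter. It was 2 with the 19 libraries and the pair share together, an alternative chosen after seeing the data, and 1 in limma voom with quality weights, where the gene was Gm44103 and not Slc7a11. Leaving out 1 library at a time gave 0 to 1. For Slc7a11 the interaction where it passed was 4.37 (19 libraries), 4.36 (no filter, and also the stricter filter), 4.39 (ribosomal RNA rows removed), 4.41 (19 libraries and pair share) and 4.37 (DESeq2). Leaving out 1 library at a time gave 4.06 to 4.67 over 19 fits, and only 2 of these passed, the fit lacking WT naive replicate 5 (4.67) and the one lacking WT swim replicate 4 (4.56). Restricting to rows with no opposite-strand gene drops Slc7a11, so that setting gives it no value. The WT and Shank3 responses had 872 and 60 calls with the pair share as a covariate, 1682 and 582 with the 19 libraries and the pair share, 1805 and 2184 of 4266 rows with no opposite-strand gene, and 661 and 654 of 1192 loci when antisense and coding pairs were summed, the last also chosen after seeing the data. Fewer rows were tested in the last 2 settings. Leaving out 1 library at a time gave 5098 to 6701 and 6098 to 7290 calls.

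Replicate numbers were not treated as pairs in the main fit. Of 9 same-numbered WT and Shank3 pairs, correlations of deviations ran from -0.252 to 0.735 and 3 were over 0.1. In 3 of the pairs the WT library correlated best with its own number. As some pairs correlated and others did not, this check cannot decide whether the samples were paired. With the replicate block, 0 genes were called in the interaction, 5146 in the WT and 6517 in the Shank3 response, and Slc7a11 was at 4.36 with an edgeR adjusted p = 0.237.

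Without scaling beyond the library total the median interaction of all genes moved from -0.02 to 0.18. List medians were then 0.22 for immediate early genes, 0.40 for delayed activity genes, 0.23 for the integrated stress response, 0.13 for heat and cold shock, 0.26 for GABA-A receptors, 0.26 for voltage-gated channels, 0.32 for Ras-ERK, 0.21 for calcium and cyclic AMP, 0.11 for adhesion and 0.27 for pyramidal markers. Without Shank3 naive replicates 6 and 7 the medians were 0.23 for immediate early genes, -0.028 for endoplasmic reticulum chaperones, -0.50 for mitochondrially encoded genes and -0.0025 for sterol synthesis, which was 0.011 with the stricter filter. Quality weights gave 0.37 for clock and 0.25 for postsynaptic density genes. Leaving out 1 library at a time gave -0.018 to 0.29 for delayed activity, -0.041 to 0.41 for cystine and glutathione, -0.060 to 0.36 for endoplasmic reticulum chaperones, -0.057 to 0.11 for voltage-gated channels and 0.026 to 0.45 for sterol synthesis. The cause of these shifts was not tested.

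Signs turned for genes near 0. Gss was -0.064 with quality weights. Gpx1 was 0.14 without scaling, 0.065 with the block, 0.26 in voom and 0.34 with quality weights. Slc1a1 was -0.020 with the pair share. Txn1 was -0.034 with the block, -0.0072 in voom and -0.0058 with quality weights. Leaving out 1 library at a time gave -0.10 to 0.23 for Gclc, -0.063 to 0.36 for Gss, -0.10 to 0.52 for Gsr, -0.57 to 0.43 for Gpx1, -0.40 to 0.44 for Slc1a1, -0.18 to 0.39 for Txn1, -0.10 to 0.47 for Prdx1 and -0.12 to 0.48 for Srxn1. The genotype difference in the change of depth (1e6 counts) ran from -0.473 to 0.0461 and that of the glial markers from -49.5 to 42.1 CPM.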
